A study of Rattus norvegicus with 12 samples.

Results

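The collagen chain genes of the rat bladder were followed through ageing and food restriction. They were chosen by name, as the genes with a symbol of the form Col, number, a, number, with a probe whose signal was well above background in every animal of 1 or more of the 3 groups. Of the 44 such symbols in the table of gene names, 18 had a probe on the array by the match used here and 17 were measured. In all 20426 entries were tested, of which 12037 carried a gene symbol. The others stood under the accession of their probe, so that a gene can be counted more than once. Below, "all genes" means these 20426 entries. Col13a1, which encodes a transmembrane collagen, had a probe but was not well above background in any group on all 4 arrays. The 17 genes comprised 7 fibrillar collagens (Col1a1, Col1a2, Col2a1, Col3a1, Col5a1, Col5a3 and Col11a2), 2 basement membrane collagens (Col4a1 and Col4a4) and 1 network collagen (Col8a1). The other 7 were the beaded filament collagen Col6a2, the fibril-associated collagens Col9a1, Col9a2 and Col14a1, the multiplexin Col18a1, the transmembrane collagen Col23a1 and the anchoring fibril collagen Col7a1.

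RNA came from the bladder body of 12 male rats of the Fischer 344 strain, with 1 animal per array. The 3 groups of 4 were young rats aged 6 months that ate freely, old rats aged 25 to 28 months that ate freely, and old rats of that same age range kept on restricted food. The restricted rats had been fed on 3 days a week since 6 weeks of age, which the labels give as about 40% restriction. The series asked how age changes gene expression in the bladder and whether restriction alters those changes. The bladder body is a mixture of urothelium, connective tissue and smooth muscle, so that fewer cells of a type and less RNA per cell cannot be told apart in these data. Only males of a single strain were studied.

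Collagens are trimers of chains wound into a triple helix. Fibrillar collagens assemble, after their end pieces are cut off and their chains cross-linked, into the fibrils that give the bladder wall its tensile strength and limit its stretch, with types I and III the main ones. Type IV collagen forms the sheet-like network of basement membranes under the urothelium and around muscle cells and vessels, type VIII forms a network around vessels, and type VII anchors an epithelial basement membrane to the stroma beneath it.

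Each level is the log2 processed signal of a gene's brightest probe minus the log2 75th percentile of signal on that array, so that 0 is the level of that percentile and a difference of 1 is a doubling. Levels of different genes come from different probes and are not compared with each other. Differences were tested with limma on all 12 arrays over all 20426 entries, and "called" means a Benjamini-Hochberg adjusted p under 0.05. Of the 17 genes, 16 were well above background on all 12 arrays. Col23a1 was so on 1 of 4 arrays of young, 4 of 4 of old freely fed and 3 of 4 of restricted rats. All freely fed rats were on slide 1 (the young in its first row, the old in its second row), which was read in scan 1. Age and array row therefore cannot be told apart in the freely fed rats. All restricted rats were in the first row of slide 2, from scan 2. Restriction and slide thus cannot be told apart in either comparison with restricted rats. Against the old freely fed rats, restriction cannot be told apart from array row either. The replicate number was also the array column, so the replicate block used below is a column block as well. Of 30367 probes, 21660 to 22294 were well above background per array in young, 23373 to 24644 in old freely fed and 22567 to 23200 in restricted rats, so that the groups did not overlap. The mean of the negative control spots, on the scale of the levels, also kept the groups apart, at -9.18 to -8.94, -10.45 to -9.97 and -9.81 to -9.54. Background thus moved with each comparison, and its part in the dim genes (Col23a1, Col4a4, Col9a2, Col2a1 and Col9a1) was not tested. Arrays of the same group correlated at 0.985 to 0.997 across genes, and old freely fed replicate 2 had a first principal component score of 51.9 where the rest of its group had 7.28 to 13.7. Without it, 0 collagen genes were called for age and 2 for restriction (Col2a1 higher and Col5a3 lower). The summed signal of 10 fibroblast markers relative to the 75th percentile was 95.6 to 108 in young, 85.2 to 102 in old freely fed and 87.2 to 91.4 in restricted rats, and that of 11 smooth muscle markers was 545 to 568, 369 to 514 and 430 to 504. For 13 leukocyte markers it was 13.5 to 15.1, 18.4 to 35.0 and 13.6 to 18.0, for 12 urothelial markers 350 to 384, 303 to 347 and 363 to 372, and for 5 adipocyte markers 12.9 to 17.1, 17.6 to 37.8 and 13.0 to 14.5. Summed signal of 7 striated muscle markers was 24.8 to 44.7, 13.6 to 28.4 and 15.8 to 18.9, and 3 of the 7 fell in restricted old against young rats by limma. Of the prostate and seminal vesicle markers 2 were tested, with sums of 0.0716 to 0.363, 0.0337 to 0.0476 and 0.0286 to 0.032, and Andpro, the leading one, was well above background on 4 of 4 arrays of young, 1 of 4 of old freely fed and 0 of 4 of restricted rats. The part of these shifts in the collagen results was not tested.

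Ageing was compared first, in rats with free access to food. Col1a2, which encodes the α2 chain of type I collagen, fell with age, and it was the 1 of 17 collagen genes called (5.88%, against 3.72% of all genes called, 2.1% lower and 1.63% higher). Most other collagen genes had a lower mean in old rats without passing the test: 12 of 17 differences were negative, their median was -0.20, and the median over all genes was -0.05. At an unadjusted p under 0.05 there were 9 of 17 genes, 6 lower and 3 higher, against 24.6% of all genes, 16.3% lower and 8.32% higher. The groups did not overlap for 1 collagen gene, against 15.1% of all genes.

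Among the fibrillar chains, Col1a2 measured 6.15, 6.16, 5.98 and 6.07 in the young rats, 5.95, 5.78, 5.81 and 5.76 in the old freely fed rats and 5.98, 5.99, 5.91 and 6.07 in the restricted rats. Every old freely fed rat except replicate 1 lay below all restricted rats, and all 4 lay below every young rat. The mean fell by 0.26 on the log2 scale with age (SE 0.06, a factor of 1.2, limma adjusted p = 0.034). The restricted mean was 0.16 above that of old freely fed rats (adjusted p = 0.14 by limma) and 0.10 below that of young rats (log2 change -0.10, adjusted p = 0.27). The age call was small and did not hold throughout: with quantile scaling the change was -0.14 (limma adjusted p = 0.17), and it was lost when any of 6 animals was left out, namely young replicates 1 and 2, old freely fed replicates 2, 3 and 4, and restricted replicate 2.

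Col1a1, the more numerous chain of the type I trimer, spread more widely. The young rats had 5.65, 5.81, 5.43 and 4.89, the old freely fed rats 5.45, 4.66, 4.63 and 4.59, and the restricted rats 5.45, 5.34, 5.64 and 5.44. The low values came from 3 of 4 old freely fed rats, while old freely fed replicate 1 lay within the range of the young and the restricted rats and young replicate 4 lay closest to the other old rats. The difference with age was -0.61 (SE 0.21, limma adjusted p = 0.11) and with restriction 0.64 (SE 0.21, adjusted p = 0.12), and neither was called. Without old freely fed replicate 1 they were -0.82 (limma adjusted p = 0.031) and 0.84 (adjusted p = 0.039), and both were called. No other leave-one-out fit called either. Without young replicate 4 the age difference was -0.80 and fell just short (limma adjusted p = 0.052). Restricted old and young rats had means of 5.47 ± 0.12 and 5.44 ± 0.40 (SD, n = 4), a difference of 0.02 with a 95% interval of -0.44 to 0.49. A second probe of Col1a1 gave -0.73, 0.56 and -0.17 for age, restriction and restricted old against young, and none of these was called by limma either.

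Col3a1, the single chain of type III collagen, which mixes with type I in distensible tissue, showed a like spread, from 5.11 to 6.14 in young, 4.89 to 5.75 in old freely fed and 5.47 to 5.56 in restricted rats. Its differences were -0.58 with age (limma adjusted p = 0.13), 0.32 with restriction (0.43) and -0.26 between restricted old and young rats (0.47). Without young replicate 4 the age difference of Col3a1 was -0.80 and was called (limma adjusted p = 0.035). Col5a1, the chain of type V collagen that starts and thins type I fibrils, lay at 0.67 to 1.21, 0.35 to 0.91 and 0.79 to 1.03 in the same order of groups. Its differences were -0.49 (limma adjusted p = 0.067), 0.41 (0.13) and -0.09 (0.72). It was called for age without young replicate 4 (-0.61) and, for age and for restriction, without old freely fed replicate 1 (-0.63 and 0.54). In Col1a1, Col3a1 and Col5a1 alike, old freely fed replicate 1 was the highest of its group and young replicate 4 the lowest of its own.

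Col5a3, another type V chain, differed from Col5a1 in the restricted rats. It measured 0.26, 0.36, 0.18 and -0.07 in young, 0.28, -0.30, -0.05 and 0.00 in old freely fed and -0.27, -0.44, -0.72 and -0.57 in restricted rats. All 4 restricted rats lay below all young rats, and they overlapped the old freely fed rats only through old freely fed replicate 2. Col5a3 fell by 0.68 on the log2 scale in restricted old against young rats (SE 0.13, a factor of 1.61, limma adjusted p = 0.012). It was still called in each of the 24 alternatives, 12 of them leaving out 1 animal. With only 1 kept probe, its second-probe, mean-over-probes and value-table fits reuse the main values. The difference between restricted and freely fed old rats was -0.48 (limma adjusted p = 0.067), and without old freely fed replicate 2 it was -0.58 and called (adjusted p = 0.041). The age difference of Col5a3 was -0.20 (SE 0.13, limma adjusted p = 0.36).

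**Figure D1:**
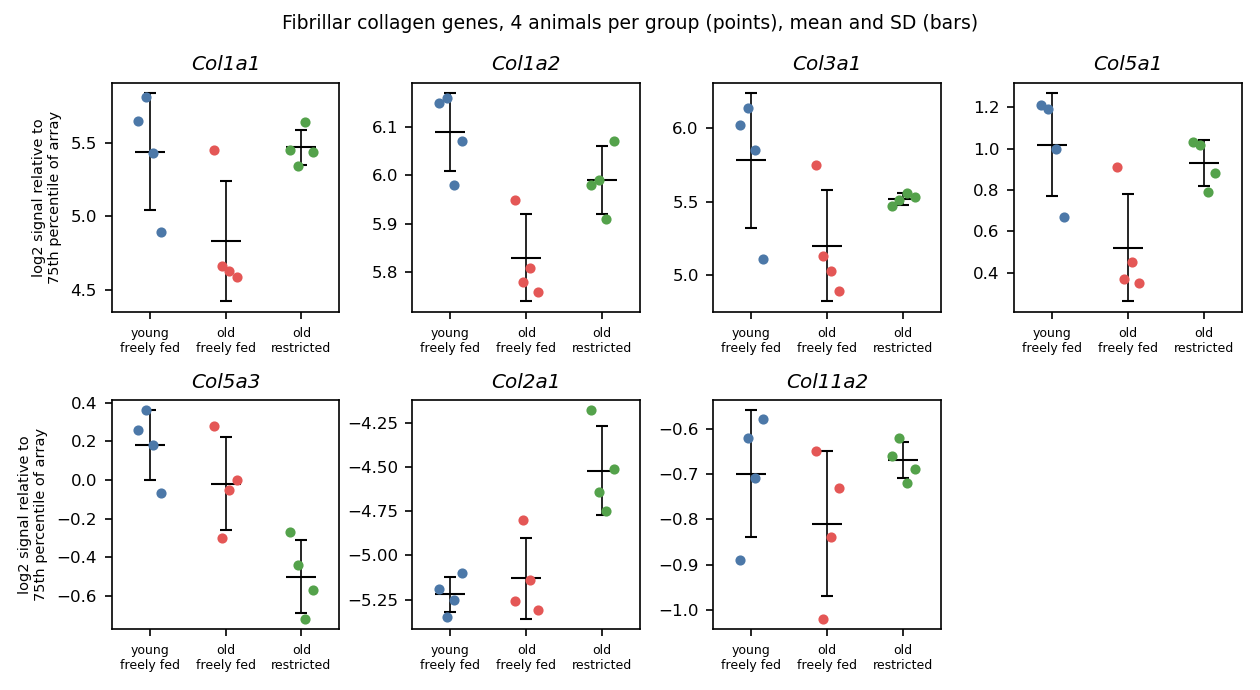
Levels of the 7 fibrillar collagen genes in each animal (y axis, log2 signal relative to the array's 75th percentile; points are animals, bars the mean and SD of 4). Old freely fed replicate 1 sits above the rest of its group for Col1a1, at 5.45 against 4.59 to 4.66, and the restricted rats sit highest for Col2a1 and have the lowest mean for Col5a3.

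Restriction was compared next, in old rats. Col2a1, Col7a1 and Col8a1 rose, which made 3 of 17 genes (17.6%, against 3.64% of all genes called, 1.62% higher and 2.02% lower), and no collagen gene was called lower, though 7 of 17 differences were negative. These 3 genes were also the ones whose groups did not overlap, against 14.7% of all genes. The median over the 17 genes was 0.14, against 0.02 over all genes, and 9 had an unadjusted p under 0.05, 6 higher and 3 lower, against 20.6% of all genes, 11.5% higher and 9.15% lower. Since the restricted rats are compared with the old freely fed rats that also enter the age comparison, the opposite signs of a gene in the 2 comparisons share those 4 animals.

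Col8a1, a chain of the short-chain network collagen made by vessel walls and by smooth muscle cells, measured -1.37, -1.59, -1.99 and -1.89 in young, -1.82, -2.02, -1.75 and -1.94 in old freely fed and -1.50, -1.36, -1.29 and -1.24 in restricted rats. The restricted rats were all above the old freely fed rats, and young replicate 1 lay among them. It rose by 0.54 with restriction (SE 0.12, 1.45-fold, limma adjusted p = 0.037), whereas its age difference was -0.17 (adjusted p = 0.40) and the restricted rats differed from the young by 0.36 (adjusted p = 0.084). The restriction call held in 11 of 12 alternatives that kept all animals and in 4 of 12 that left out 1, namely young replicate 1, 3 or 4 or restricted replicate 1. Col8a1 had only 1 kept probe, so its second-probe, mean-over-probes and value-table fits reuse the main values. Young rats do not enter this difference, so leaving 1 out changes only the spread and the adjustment, not the 0.54. The lost calls had the same direction, with values of 0.49 to 0.59 over all 12 fits that left out 1 animal.

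Col7a1, the chain of the anchoring fibrils that tie epithelium to stroma, had the largest called difference. Its levels were -2.81, -2.52, -2.62 and -2.74 in young, -1.85, -2.37, -2.33 and -2.61 in old freely fed and -1.76, -1.83, -1.82 and -1.59 in restricted rats. The restricted rats lay above every other animal, though old freely fed replicate 1, at -1.85, came just under the lowest of them, at -1.83. Restricted old against young rats differed by 0.92 (SE 0.13, 1.9-fold, limma adjusted p = 0.0034), a rise that held in all 24 alternatives. With restriction Col7a1 rose by 0.54 (SE 0.13, 1.45-fold, limma adjusted p = 0.049), which failed the test in 11 of the 12 leave-one-out fits and passed only without old freely fed replicate 1 (0.69). It passed in 4 of the 12 alternatives that kept all animals. Col7a1 had only 1 kept probe, so its second-probe, mean-over-probes and value-table fits reuse the main values. The age difference was 0.38 (limma adjusted p = 0.11).

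Other genes of the epithelial edge are given beside Col7a1. Krt5, the keratin of basal urothelial cells, which sit on the basement membrane, had means of 0.44 ± 0.33, 1.11 ± 0.16 and 1.45 ± 0.15 (SD, n = 4) in young, old freely fed and restricted rats. It rose 1.58-fold with age (limma adjusted p = 0.036) and 2.01-fold in restricted old against young rats (adjusted p = 0.0032). Lamb3, a chain of the epithelial laminin that binds near the anchoring fibrils, rose 1.34-fold in restricted old against young rats (limma adjusted p = 0.02). Of the 8 other basement membrane genes tested, it was the 1 that rose there, while 2, Lamc1 and Lamb2, fell (37.5% called, against 9.17% of all genes). The urothelial list as a whole did not follow Krt5 with age: 9 of 12 markers had a lower mean in old freely fed rats, with a median difference of -0.13, and 4 were lower and 2 higher at an unadjusted p under 0.05. In restricted old against young rats the list's median was 0.06, and Krt5 was the 1 of 12 called. All 12 urothelial markers tested had a higher mean in restricted than in freely fed old rats, with a median difference of 0.18, and 0 of the 12 were called by limma (7 at an unadjusted p under 0.05). The part of the urothelial share in the Col7a1 difference was not tested.

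Col2a1, the fibrillar chain best known from cartilage, was dim, at -5.19, -5.35, -5.25 and -5.10 in young, -5.26, -4.80, -5.14 and -5.31 in old freely fed and -4.18, -4.64, -4.75 and -4.51 in restricted rats. Every restricted rat lay above every other animal, the closest being restricted replicate 3 at -4.75 and old freely fed replicate 2 at -4.80. Col2a1 rose 1.52-fold with restriction (0.61, SE 0.14, limma adjusted p = 0.039) and 1.62-fold in restricted old against young rats (0.70, SE 0.14, adjusted p = 0.014). The second call held in all 24 alternatives, the first in 9 of 12 with all animals and in 4 of 12 without 1 animal (young replicate 1 or 4, old freely fed replicate 2 or restricted replicate 3). Col2a1 had only 1 kept probe, so its second-probe, mean-over-probes and value-table fits reuse the main values. Young rats do not enter the restriction difference. Of the cartilage genes looked up beside it, Acan, Cnmd and Matn1 were not well above background, and Sox9 was tested and not called. Col11a2, a partner of Col2a1 in cartilage fibrils, lay between -1.02 and -0.58 in all 12 rats and was not called in any comparison.

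**Figure D2:**
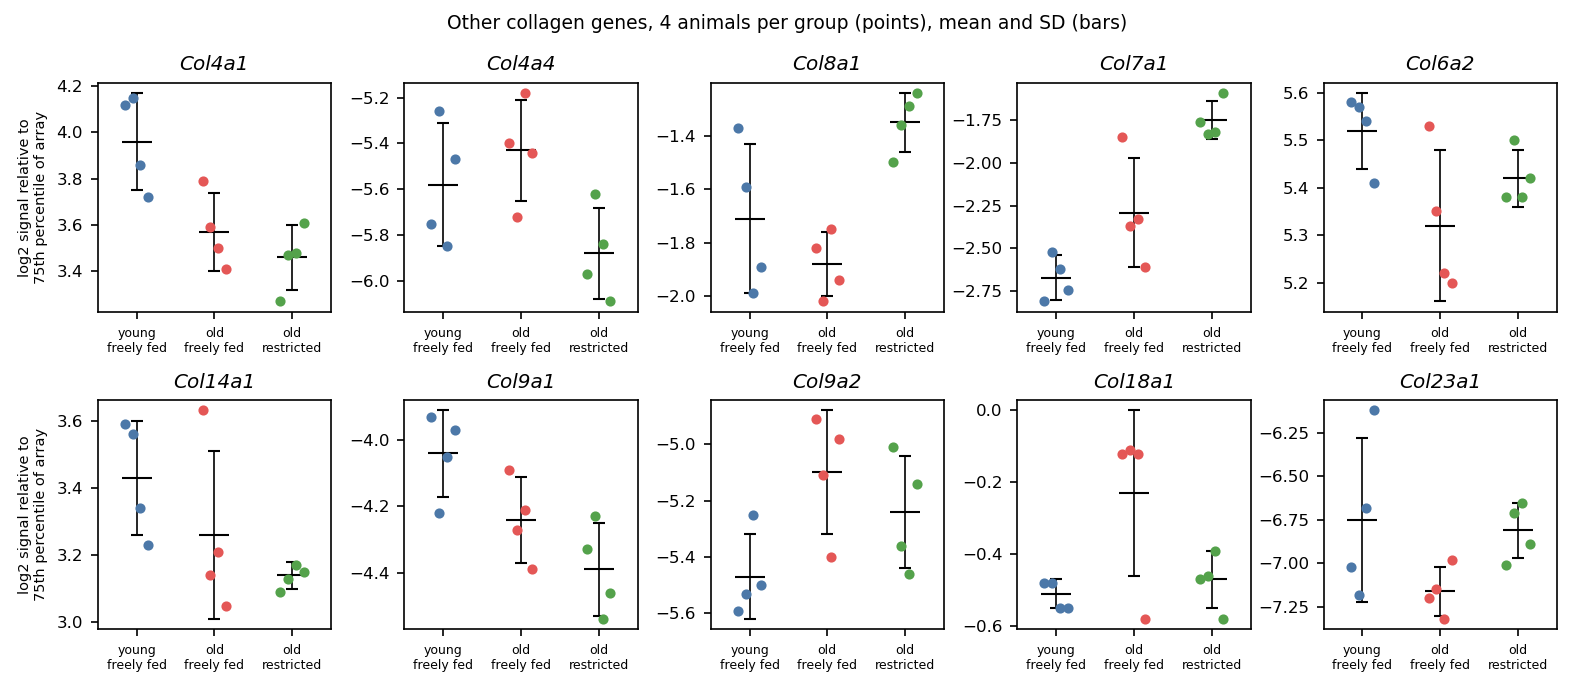
Levels of the 10 collagen genes outside the fibrillar class (y axis, log2 signal relative to the array's 75th percentile; points are animals, bars the mean and SD of 4). The restricted rats lie above all others for Col7a1, above the old freely fed rats for Col8a1, and below the young rats for Col4a1, Col9a1 and Col14a1.

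Restricted old rats were then compared with young rats, which joins age, diet and slide in 1 difference. Col2a1 and Col7a1 rose and Col5a3, Col4a1 and Col9a1 fell, 5 of 17 genes (29.4%, against 9.17% of all genes called, 3.19% higher and 5.99% lower). The groups did not overlap for these 5 and for Col14a1, 6 genes, against 18.0% of all genes. At an unadjusted p under 0.05 there were 7, 3 higher and 4 lower, against 26.1% of all genes, 10.1% higher and 16.0% lower. The median over the 17 genes was -0.09, against -0.01 over all genes. Means of Col1a1, Col1a2, Col3a1 and Col5a1 differed by -0.26 to 0.02, and the 95% intervals of Col1a1 and Col3a1 reached from -0.44 to 0.49 and from -0.73 to 0.21.

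Among the basement membrane chains, Col4a1, an almost universal chain of type IV collagen, measured 4.12, 4.15, 3.86 and 3.72 in young, 3.79, 3.59, 3.50 and 3.41 in old freely fed and 3.27, 3.47, 3.48 and 3.61 in restricted rats. The restricted rats were below all young rats and overlapped the old freely fed ones. It fell by 0.51 on the log2 scale in restricted old against young rats (SE 0.11, a factor of 1.42, limma adjusted p = 0.02). The age difference was -0.39 (limma adjusted p = 0.068) and the restriction difference -0.11 (adjusted p = 0.59, 95% interval -0.36 to 0.13). The old freely fed mean lay between those of the other groups, with replicate 1 inside the young range. The age difference was -0.46 and called without that animal (limma adjusted p = 0.042), and -0.47 and called without young replicate 4 (adjusted p = 0.046). A second probe of Col4a1 gave -0.54, 0.15 and -0.39 for age, restriction and restricted old against young, with a restriction difference of the opposite sign, and none was called by limma. The call in restricted against young rats was lost without young replicate 1 or 2 or restricted replicate 3.

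Col4a4, a chain of the α3α4α5 network best known from the kidney filter, was dim, at -5.75, -5.26, -5.85 and -5.47 in young, -5.40, -5.72, -5.18 and -5.44 in old freely fed and -5.97, -5.62, -5.84 and -6.09 in restricted rats. The groups overlapped, and the restriction difference of -0.44 was not called (limma adjusted p = 0.15) and was -0.08 with normexp background correction and 75th percentile scaling. The 2 basement membrane genes had a median difference of -0.12 with age, -0.28 with restriction and -0.40 in restricted old against young rats, and the 7 fibrillar genes had -0.26, 0.32 and -0.09. The network class consisted of Col8a1, at -0.17, 0.54 and 0.36. With restriction, then, 6 of 7 fibrillar differences and that of Col8a1 were positive and both basement membrane differences were negative. Of these, 1 fibrillar gene, Col8a1 and 0 basement membrane genes were called. The negative sign of Col4a1 was that of its brightest probe, and its second probe gave 0.15. A difference between the classes was not tested.

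The other basement membrane genes were read beside Col4a1. Of 8 tested, 2 fell with age (25.0%, against 3.72% of all genes), namely Lamb2 by 0.45 and Lamc1 by 0.40 on the log2 scale (limma adjusted p = 0.024 and 0.032), which encode the β2 and γ1 chains of laminin, the other main polymer of the basement membrane. In restricted old against young rats 2 of the 8 fell and 1 rose (37.5%, against 9.17% of all genes). Lamc1 fell by 0.41 (limma adjusted p = 0.015) and Lamb2 by 0.35 (adjusted p = 0.028), while Lamb3 rose by 0.42 (adjusted p = 0.02). With quantile scaling the age change of Lamc1 was -0.34 and was not called (limma adjusted p = 0.058). With restriction 0 of 8 were called by limma, with 2 at an unadjusted p under 0.05. Collagen-binding Itga1, the integrin α1 subunit found on smooth muscle, fell by 0.25 both with age (limma adjusted p = 0.041) and in restricted old against young rats (adjusted p = 0.025). With quantile scaling both changes of Itga1 were -0.17 and not called (limma adjusted p = 0.15 and 0.10). All 11 smooth muscle markers tested had a lower mean in old than in young freely fed rats, 10 at an unadjusted p under 0.05 and 3 called by limma, and their part in these changes was not tested.

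**Figure D3:**
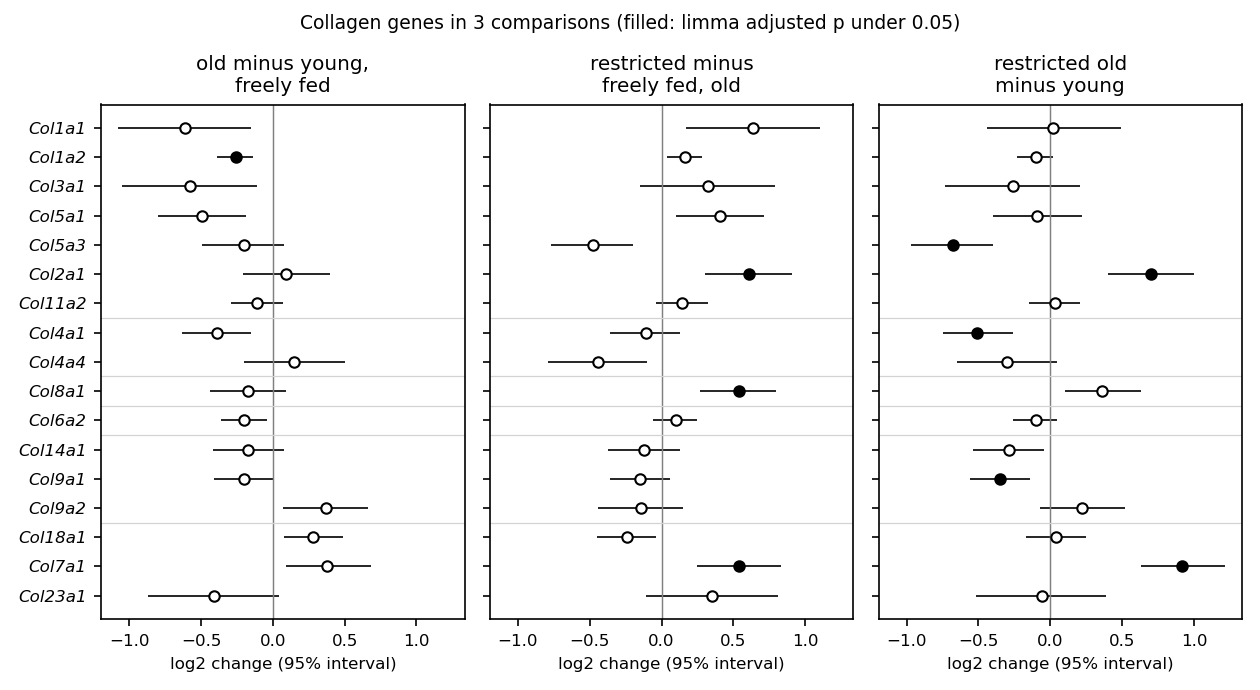
Differences of the 17 collagen genes in the 3 comparisons (x axis, log2 difference, with 95% intervals; filled points passed the limma test). The called genes are Col1a2 for age, Col2a1, Col7a1 and Col8a1 for restriction, and Col2a1, Col4a1, Col5a3, Col7a1 and Col9a1 for restricted old against young rats.

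The fibril-associated collagens sit on the surface of fibrils. Col9a1, a chain of type IX collagen, measured -3.93, -4.22, -4.05 and -3.97 in young, -4.09, -4.27, -4.21 and -4.39 in old freely fed and -4.33, -4.23, -4.54 and -4.46 in restricted rats. The lowest young rat, at -4.22, lay just above the highest restricted rat, at -4.23. It fell by 0.35 on the log2 scale in restricted old against young rats (SE 0.10, a factor of 1.27, limma adjusted p = 0.046), a call held in 3 of 12 fits without 1 animal (young replicate 2 or old freely fed replicate 1 or 4), and a second probe gave -0.16 (adjusted p = 0.68). Col9a2, its partner chain, was dim, at -5.59, -5.53, -5.25 and -5.50 in young, -4.91, -5.11, -5.40 and -4.98 in old freely fed and -5.01, -5.36, -5.46 and -5.14 in restricted rats. The old freely fed rats were mostly higher but overlapped the young through replicate 3. The age difference of 0.37 was not called (limma adjusted p = 0.13) and was 0.15 with normexp and 75th percentile scaling. Its sign was opposite to that of Col9a1 with age and in restricted old against young rats (0.22, limma adjusted p = 0.33). With restriction the 2 chains had the same sign (-0.15 for Col9a1 and -0.14 for Col9a2), and neither was called.

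Col14a1, which regulates fibril diameter, ranged from 3.23 to 3.59 in young, 3.05 to 3.63 in old freely fed and 3.09 to 3.17 in restricted rats. All restricted rats were below all young rats, with a difference of -0.29 that was not called (limma adjusted p = 0.13). Col6a2, a chain of the beaded filaments that link cells to fibrils, measured 5.58, 5.57, 5.54 and 5.41 in young, 5.53, 5.35, 5.22 and 5.20 in old freely fed and 5.38, 5.50, 5.38 and 5.42 in restricted rats. Its groups overlapped and its age difference of -0.20 was not called (limma adjusted p = 0.12). Without old freely fed replicate 1 it was -0.27 and called (adjusted p = 0.033), the only leave-one-out fit that called it. With quantile scaling the age difference of Col6a2 was -0.09 (limma adjusted p = 0.59).

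Col18a1, the basement membrane collagen whose end is released as endostatin, measured -0.48, -0.48, -0.55 and -0.55 in young, -0.12, -0.11, -0.12 and -0.58 in old freely fed and -0.47, -0.46, -0.39 and -0.58 in restricted rats. Only 3 of 4 old freely fed rats were high, and replicate 4 lay below every young rat. The differences were 0.28 with age (limma adjusted p = 0.10) and -0.24 with restriction (adjusted p = 0.18). Without that animal they were 0.40 and -0.36, and both were called (limma adjusted p = 0.0068 and 0.0075). No other leave-one-out fit called either difference. This animal was singled out after its value was seen, and both differences share the other 3 old freely fed rats. These 2 calls are therefore no independent support for a change. Col23a1, a transmembrane chain, was the dimmest in detection, at -7.02, -7.18, -6.68 and -6.12 in young, -7.20, -7.15, -7.32 and -6.98 in old freely fed and -7.01, -6.71, -6.65 and -6.89 in restricted rats. The groups overlapped in each comparison, and no difference of Col23a1 was called.

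Animals with a high Col1a1 for their group were also high for several other collagens. Over the 12 rats, deviations from the group mean correlated with those of Col1a1 at r = 0.96 for Col3a1 (Spearman's rho 0.97), 0.92 for Col14a1 (rho 0.85) and 0.80 for Col4a1 (rho 0.77). Leaving out the 2 animals whose Col1a1 lay farthest from its group mean, old freely fed replicate 1 (0.62 above) and young replicate 4 (-0.55), r was 0.92, 0.85 and 0.65. Of the 16 genes compared, Col5a1 had r = 0.87, Col6a2 0.78 and Col5a3 0.64, which fell to 0.63, 0.48 and 0.29 without the same 2 animals. Col7a1 had 0.67 and Col1a2, the other chain of type I collagen, only 0.58, which fell to 0.47 and 0.42. Col9a1 and Col4a4 had r of 0.02 and 0.04, and Col23a1 ran the other way, at -0.63. Within the 8 animals of slide 1, r was 0.98 for Col3a1 and Col5a1, 0.94 for Col14a1, 0.93 for Col4a1 and 0.89 for Col6a2. It was 0.87 there for Col5a3, 0.76 for Col1a2, 0.73 for Col7a1 and -0.71 for Col23a1. Both animals left out above were on slide 1, so the slide 1 values include them and are no separate check. Slide 2 held only 4 animals. Genes on 1 array share its scaling, and Col1a1 was picked for this comparison after its values were seen, so the correlations are a description and are given without a p-value.

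**Figure D4:**
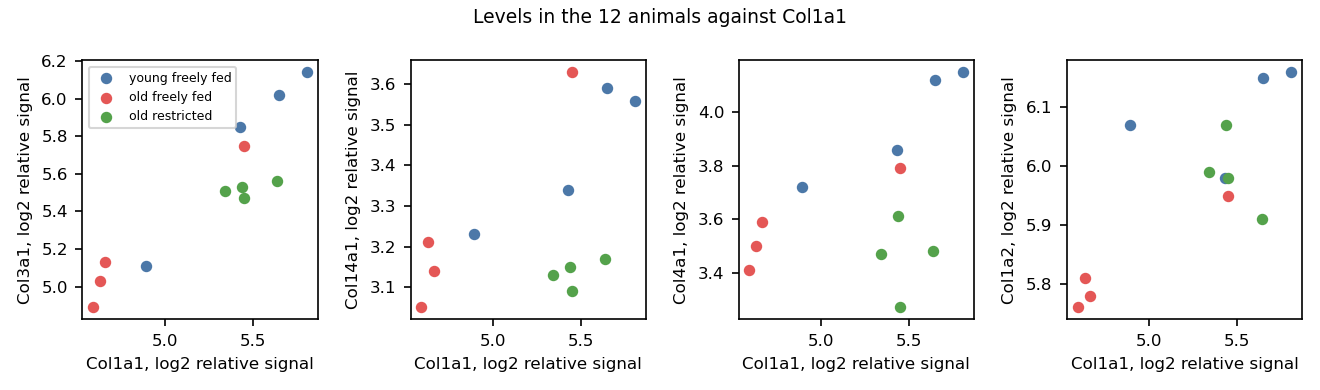
Levels of other collagen genes (y axis) against Col1a1 (x axis) in the 12 animals, both as log2 signal relative to the array's 75th percentile, coloured by group. Within the freely fed groups the points climb together for Col3a1, whose deviations from group means correlated at r = 0.96 with those of Col1a1, while the 4 restricted rats sit close together between 5.34 and 5.64.

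Genes that make, cut, bind and degrade collagen were read from lists of named genes, whose called shares stand against 3.72% of all genes with age, 3.64% with restriction and 9.17% in restricted old against young rats. Of 21 folding and hydroxylation genes tested, 1 fell with age, 2 rose with restriction and 1 rose in restricted old against young rats (4.76%, 9.52% and 4.76%). P3h3, a prolyl hydroxylase family member of the collagen-modifying complex, fell by 0.23 with age (limma adjusted p = 0.038). Fkbp10 and Fkbp14, prolyl isomerases that help collagen fold, rose by 0.37 and 0.25 with restriction (limma adjusted p = 0.042 and 0.035). These 3 calls held in 9, 13 and 10 of 24 alternatives. The list's median differences were -0.14 with age, 0.11 with restriction and 0.01 between restricted old and young rats, against -0.05, 0.02 and -0.01 over all genes.

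Of 9 procollagen processing and cross-linking genes tested, 3 fell with age and 0 rose (33.3%). Loxl2 and Loxl3, lysyl oxidase relatives that cross-link collagen, fell by 0.79 and 0.45 on the log2 scale (limma adjusted p = 0.038 and 0.017), and Bmp1, the protease that trims the C-terminal end of fibrillar procollagens, fell by 0.35 (adjusted p = 0.035). Bmp1 also fell by 0.33 in restricted old against young rats (limma adjusted p = 0.022), and it was the only one of the 9 called there (11.1%). With restriction 0 of 9 were called by limma, with 1 at an unadjusted p under 0.05. The fall of Loxl3 held in 23 of 24 alternatives, those of Bmp1 and Loxl2 with age in 10 and 11 of 24.

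Of 10 fibril-binding proteoglycans and glycoproteins, 0 were called with age, 1 (10%) with restriction and 2 (20%) in restricted old against young rats. Thbs2, a matricellular protein of which loss disturbs collagen fibrils, rose by 0.42 with restriction and by 0.38 in restricted old against young rats (limma adjusted p = 0.023 and 0.021). Aspn, a small proteoglycan that binds collagen, fell by 0.90 in restricted old against young rats (limma adjusted p = 0.049, held in 10 of 24 alternatives). With age 0 of the 10 were called by limma, with 4 at an unadjusted p under 0.05. Of 8 collagen receptors, 1 fell with age (Itga1), 1 fell with restriction and 2 fell in restricted old against young rats (12.5%, 12.5% and 25.0%). The receptor that fell with restriction was Cd36, which binds collagen as well as fatty acids, by 0.44 (limma adjusted p = 0.036). The other receptor in restricted old against young rats was Ddr2, a kinase activated by fibrillar collagen, lower by a factor of 1.22 (limma adjusted p = 0.032). The falls of Cd36 and Ddr2 held in 17 and 13 of 24 alternatives.

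Among 13 collagen-degrading enzymes and their inhibitors, 1 rose and 0 fell with age, 0 rose and 1 fell with restriction, and 1 rose and 3 fell in restricted old against young rats (7.69%, 7.69% and 30.8%). Mmp13, a collagenase that cuts fibrillar collagen, rose 9.82-fold with age (log2 change 3.30, SE 0.59, limma adjusted p = 0.021), from -5.68 ± 0.18 to -2.38 ± 1.37 (SD, n = 4). Mmp14, the membrane-bound protease that cleaves type I collagen, fell by 0.35 with restriction (limma adjusted p = 0.025) and by 0.28 in restricted old against young rats (adjusted p = 0.038). In the latter comparison Mmp15 fell by 0.60 and Timp2, an inhibitor of these enzymes, by 0.20, while Timp4, another inhibitor, rose by 0.49 (limma adjusted p = 0.029, 0.049 and 0.04). With quantile scaling the changes of Mmp14 (-0.21) and Timp2 (-0.12) in that comparison were not called (limma adjusted p = 0.096 and 0.24). The rise of Mmp13 held in 22 of 24 alternatives, the fall of Mmp14 with restriction in 18, and the changes of Mmp15, Timp4 and Timp2 in 20, 12 and 7. Of the 13 leukocyte markers 7 rose with age, and their part in the Mmp13 change was not tested.

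Of 16 regulators of collagen genes, 1 fell with age, 1 rose with restriction and 1 fell in restricted old against young rats, 6.25% each time. Igf1, a growth factor that raises collagen synthesis, fell by 0.47 with age and by 0.65 in restricted old against young rats (limma adjusted p = 0.045 and 0.0082). The first of these held in 6 and the second in all of 24 alternatives. Smad2, which carries the signal of TGF-β, rose by 0.25 with restriction (limma adjusted p = 0.026, held in 16 of 24 alternatives). Fibroblast markers were called lower with age in 2 of 10 genes (Pdgfrl and Cd34), in 0 of 10 with restriction by limma (2 at an unadjusted p under 0.05), and lower in restricted old against young rats in 3 of 10 (20%, 0% and 30%).

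The start regions of the called genes are shown because these are the collagens whose transcripts differed between groups. The table of RefSeq sequences on GRCr8 held 12 of the 17 genes, and 6 of the 7 called in any comparison. Each line gives the 150 bases before the annotated start, 5′ to 3′ on the gene's strand, with GGGCGG or its reverse complement CCGCCC, the core letters of a GC box, in capitals.
Col1a2, chr4:33518407-33518556, plus strand: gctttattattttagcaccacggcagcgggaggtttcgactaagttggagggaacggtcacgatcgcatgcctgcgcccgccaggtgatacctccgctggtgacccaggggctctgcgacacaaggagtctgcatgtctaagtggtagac
Col5a3, chr8:27625949-27626098, minus strand: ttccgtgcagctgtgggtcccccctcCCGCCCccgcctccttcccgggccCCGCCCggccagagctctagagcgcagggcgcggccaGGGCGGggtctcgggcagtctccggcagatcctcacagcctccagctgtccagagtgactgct
Col8a1, chr11:56246632-56246781, plus strand: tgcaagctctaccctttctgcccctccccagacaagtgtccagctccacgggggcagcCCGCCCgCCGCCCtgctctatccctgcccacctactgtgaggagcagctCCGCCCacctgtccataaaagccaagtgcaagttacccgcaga
Col7a1, chr8:118483214-118483363, plus strand: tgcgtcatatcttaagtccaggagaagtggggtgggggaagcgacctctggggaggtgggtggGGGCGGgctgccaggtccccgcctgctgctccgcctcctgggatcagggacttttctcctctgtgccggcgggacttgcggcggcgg
Col4a1, chr16:84885447-84885596, plus strand: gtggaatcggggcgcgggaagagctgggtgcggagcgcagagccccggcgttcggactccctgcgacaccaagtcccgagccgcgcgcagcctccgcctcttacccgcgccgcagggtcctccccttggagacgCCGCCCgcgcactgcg
Col9a1, chr9:34081214-34081363, plus strand: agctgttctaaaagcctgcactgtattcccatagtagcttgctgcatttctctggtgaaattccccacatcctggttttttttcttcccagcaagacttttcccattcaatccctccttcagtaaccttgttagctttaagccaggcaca
GGGCGG in either orientation was found in 4 of the 6 windows shown: in Col7a1 at 87 to 82 bases before the start, in Col4a1 at 16 to 11, and 3 times each in Col5a3 and Col8a1. The windows of Col1a2 and Col9a1 held none, and that of Col9a1 was the least GC-rich, at 44.0%, against 74.7% in Col4a1. Among all 12 collagen windows 8 held it, against 27.8% of 27457 windows of the same length. CCAAT (or ATTGG) and TATAAA (or TTTATA) were in 0 of the 12, against 23.7% and 8.16% of all windows. Col4a1 starts head to head with Col4a2 on chromosome 16, and the 300-base start regions of the pair overlap by 176 bases. These are matches of letters in a window and were not set against the expression values. The annotated starts were not checked, and letters just outside a window are not counted. A window without a match therefore does not show that the promoter lacks that element.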

How the data were processed

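Total RNA of 12 bladders was labelled with Cy3 and hybridised to 1-colour arrays (Agilent, genome build rn4, per the file headers). The deposited values were spot intensities, background-subtracted by the authors with Agilent Feature Extraction 10.7, per the file headers and the submitters' processing notes, without scaling between arrays. From them, log2 of the processed signal minus each array's 75th percentile (3993.2 to 4891.7) was computed over 58717 non-control spots. Spots marked as outliers were left out, spots of a probe averaged, and a probe kept if it was well above background in all 4 animals of any group (23090 of 30367). The probe with the highest mean stood for a gene. Names came from RefSeq accessions through a GRCr8 table, used for names and start sequences (59.3% of probes named). Coordinates are those of GRCr8, not of the array's build.

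Tests used limma 3.58 in R 4.3 (eBayes with a brightness trend, 12 arrays, two-sided, Benjamini-Hochberg adjustment), and the steps were tested on simulated data. Each array holds 1 animal, and the number of animals limits the precision. Alternatives were other scalings, normexp (offset 50, on the median signal, as the mean signal was not used here), filters and probes. Others were a fit without trend, 2 groups only, a replicate block, the deposited value table and leaving out each animal. The members, classes and gene lists were chosen with earlier results of these data known. All collagen genes were accounted for, with each animal's value for called genes and for the largest difference of each class, and other genes came from the lists, up to 4 called per list and comparison by smallest adjusted p. 0 columns of other samples were found.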

Additional observations from a re-analysis of the deposited data

Results flagged for a closer look

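Each gene's levels in the 4 animals of a group were examined for an animal far from the others, 51 groups in all, by the gap to the nearest other animal as a share of the group's range, with Dixon's 95% critical value as the limit. Chance alone would put about 1 in 20 groups past it, and 2 were. Col1a1 in old freely fed replicate 1 was 5.45, against 4.59 to 4.66 in the other 3 animals, a gap of 0.918 of the range. Col18a1 in old freely fed replicate 4 was -0.58, against -0.12 to -0.11, a gap of 0.98 of the range. Different animals were involved, and in both genes the old freely fed rat that stood apart lay on the side of the other groups' values.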

How the results depend on the processing

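Each comparison was recomputed under 24 alternatives, 12 of which left out 1 animal. Of 600 values for 25 single-gene differences, 514 kept their side of the threshold and 0 changed direction. In part of them the direction could not change. The fits without trend, with only the 2 groups, with the replicate block or on the deposited value table repeat the main difference. So does leaving out an animal of the group outside the comparison. Only 5 of the 17 genes had more than 1 kept probe, so for the others the probe alternatives also repeat it. The number of collagen genes called with age, 1, became 0 with quantile scaling, median centring, normexp with quantile scaling, no brightness trend or only the 2 groups compared. It became 3 with no filter on dim probes and 2 with the replicate number as a block. Leaving out 1 animal gave 0 to 5, and without old freely fed replicate 4 the 1 gene called was Col18a1, which rose. With restriction the count of 3 became 1 with no filter on dim probes, 1 with only the 2 groups and 0 with the replicate block. Leaving out 1 animal gave 0 to 3, but not always of the same genes. The 3 without old freely fed replicate 1 were Col1a1, Col5a1 and Col7a1, of which only 1 was a main call. Without old freely fed replicate 4 the 1 gene called was Col18a1, which fell. Restricted old against young rats gave 5, which became 3 with the second brightest probe and 3 with the mean over probes, and 3 to 6 leaving out 1 animal, and 4 with the replicate block. The restriction median of basement membrane genes, -0.28, was -0.12 with normexp and 75th percentile scaling. The filters change which genes enter, while the probe alternatives keep the genes and change the probe that stands for them. With the second brightest probe, Col4a1 and Col9a1 were -0.39 and -0.16 in restricted old against young rats (limma adjusted p = 0.18 and 0.68). They were the calls lost there and with the mean over probes. The cause of the other changes was not tested.

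Same-numbered animals did not deviate together (correlations of -0.19 to 0.095), so the replicate numbers do not pair them. Leaving out 1 animal moved class medians between -0.31 and -0.24 for fibrillar genes with age, 0.22 and 0.50 with restriction and -0.16 and -0.03 in restricted old against young rats. For basement membrane genes the ranges were -0.18 to -0.04, -0.33 to -0.23 and -0.46 to -0.32. Over all genes, the age calls numbered 332 higher and 428 lower, but 364 and 152 with quantile scaling, 370 and 145 with median centring, 287 and 124 when quantile scaling followed normexp, 236 and 204 without the trend, 215 and 283 with the block, 691 and 2877 without the filter, and 67 and 27 with only the 2 groups. For restriction they were 331 and 413, but 240 and 434 with median centring, 580 and 325 with normexp and 75th percentile scaling, 213 and 265 with the 2 groups and 189 and 309 with the block. For restricted old against young rats they were 651 and 1223, but 827 and 880 with quantile scaling, 683 and 819 when it followed normexp, 678 and 871 with median centring, and 781 and 2478 without the filter. Leaving out 1 animal gave from 73 and 48 (without young replicate 2) to 287 and 640 (without old freely fed replicate 1) for age, from 117 and 151 (without restricted replicate 2) to 390 and 458 (without young replicate 1) for restriction, and from 278 and 459 (without restricted replicate 3) to 758 and 1331 (without old freely fed replicate 2) for restricted old against young rats. Dim signal limits Col23a1, and 4 animals per group limit the rest.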
